A study of Homo sapiens with 45 samples.

Results

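The heat shock proteins and cochaperones examined here are 39 genes named by symbol, of which 38 were matched to rows among the 15698 genes with normalised expression. CRYAB was not among those rows. The genes were the HSP70, HSP110, HSP90 and small heat shock families, the mitochondrial chaperonin, J-domain proteins, BAG proteins, other cochaperones, the transcription factors HSF1 and HSF2, and the collagen chaperone SERPINH1. RNA came from HCT116-VR, a single line made from the human colorectal carcinoma line HCT116 by culture in rising concentrations of the histone deacetylase inhibitor vorinostat. The cells were mock transfected with lipid only, or transfected at 40 nM with a pool of siRNAs against BEGAIN, CCNK, CDK10, DPPA5, EIF3L, GLI1, JAK2, NFYA, POLR2D, PSMD13, RGS18, SAP130, TGM5 or TOX4, and harvested after 48 h. No group held a non-targeting siRNA and no group held vorinostat. Each of the 15 conditions had 3 independent experiments, which gives 45 libraries.

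Heat shock proteins bind unfolded proteins and help them to fold, to reach their compartment or to be degraded. HSP70 proteins work in cycles of ATP hydrolysis that J-domain proteins start and that HSP110 and BAG proteins, as nucleotide exchange factors, reset. HSP90 takes over part-folded clients such as kinases, with help from cochaperones such as STIP1 and AHSA1. HSF1 drives the inducible members when unfolded proteins accumulate, through repeats of the bases GAA and their complement TTC in promoters. In tumour cells many of these genes are expressed without any heat.

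The deposited columns carry library numbers (KF_1 to KF_51, with gaps), and only the sample list of the study ties these numbers to conditions. The reads of the siRNA targets went against that list. Of the 33 places made up by the lowest 3 libraries of the 11 targets found among the rows, only 3 went to libraries that the list gives to the matching siRNA. PSMD13, a proteasome subunit, had 58 reads in KF_30, 108 in KF_15 and 97 in KF_2, which are listed as siSAP130, siTOX4 and siBEGAIN, and 1983 reads in KF_44, the next by normalised expression. The library most alike to each one over 2197 variable genes other than the members was never a listed replicate (0 of 45). Libraries are therefore called by their number, no library was given another condition, and most results below use all 45 libraries without names. Between 7569592 and 21149597 reads per library (median 11551126) fell on the genes with values. Epithelial markers were read in every library, with KRT8 at 7665 reads or more and EPCAM at 2459 or more, whereas the fibroblast collagen COL1A1 had 33 to 314 reads. The leukocyte, endothelial and other fibroblast markers PTPRC, CD3E, PECAM1, VWF and COL1A2 were not among the rows.

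Upstream sequences are shown first for the members on which the results turn, the HSP70 genes HSPA1A, HSPA1B and HSPA8, their partner DNAJB1, and SERPINH1 and CHORDC1, which had some of the widest ranges. They are RefSeq sequences on GRCh38.p14, and each one ends 1 base before an annotated start. Capitals mark the letters GAANNTTC or TTCNNGAA, the 2-unit forms of the heat shock element, each of which reads the same on the other strand.

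HSPA1A (chr6:31815293-31815542, plus strand): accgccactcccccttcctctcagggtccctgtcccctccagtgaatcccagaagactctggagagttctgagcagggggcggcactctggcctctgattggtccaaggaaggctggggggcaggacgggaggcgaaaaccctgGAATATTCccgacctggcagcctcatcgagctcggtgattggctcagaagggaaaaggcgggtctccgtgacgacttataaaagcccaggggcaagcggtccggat
HSPA1B (chr6:31827488-31827737, plus strand): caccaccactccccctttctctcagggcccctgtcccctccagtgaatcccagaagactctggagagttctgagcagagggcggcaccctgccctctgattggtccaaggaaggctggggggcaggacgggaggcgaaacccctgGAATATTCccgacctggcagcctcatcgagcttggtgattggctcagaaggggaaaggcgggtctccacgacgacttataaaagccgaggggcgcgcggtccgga
HSPA8 (chr11:123062137-123062386, minus strand): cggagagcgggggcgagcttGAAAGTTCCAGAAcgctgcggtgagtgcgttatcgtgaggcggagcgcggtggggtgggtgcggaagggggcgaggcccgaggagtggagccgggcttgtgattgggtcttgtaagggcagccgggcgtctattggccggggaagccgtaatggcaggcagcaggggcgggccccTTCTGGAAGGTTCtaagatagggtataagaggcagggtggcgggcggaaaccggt
DNAJB1 (chr19:14518398-14518517, minus strand): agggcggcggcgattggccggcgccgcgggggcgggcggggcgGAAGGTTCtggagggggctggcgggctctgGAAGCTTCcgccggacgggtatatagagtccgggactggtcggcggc
SERPINH1 (chr11:75562133-75562252, plus strand): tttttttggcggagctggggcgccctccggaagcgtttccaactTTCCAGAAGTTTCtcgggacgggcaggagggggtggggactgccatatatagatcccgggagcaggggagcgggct
CHORDC1 (chr11:90223050-90223169, minus strand): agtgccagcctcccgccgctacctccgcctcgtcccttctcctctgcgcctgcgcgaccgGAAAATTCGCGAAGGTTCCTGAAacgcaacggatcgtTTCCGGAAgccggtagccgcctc

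The HSPA1A and HSPA1B windows, shifted by 1 base, had the same base at 235 of 249 positions (94.4%), and the same single match. HSPA8 and CHORDC1 held overlapping matches that run into 3 units (GAANNTTCNNGAA or TTCNNGAANNTTC, which are each other's reverse complement), as did SERPINH1. Sequences of 33 of the members were used, and HSF1 and BAG4 were among those left out, by their chromosome. The 3-unit form stood in the 250 bases before a start of 7 of the 33 (21.2%). These were CHORDC1, DNAJB6, HSP90AA1, HSP90AB1, HSPA8, HSPD1 and SERPINH1. Over all genes with a sequence, with none left out by chromosome, 0.557% had the 3-unit form. The 2-unit forms stood before 15 of the 33 members (45.5%) and before 14% of all genes. CCAAT or ATTGG, the letters that the siRNA target NFYA is known to bind as part of NF-Y, stood before 12 of the 33 members (36.4%) against 37% of all genes. A match is a description of the letters in this window, and its absence says nothing of the factor.

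Levels were compared between members as CPM per kb of the canonical transcript, at the median over the 45 libraries. The cytosolic HSP90 genes led, with HSP90AB1 at 1921 and HSP90AA1 at 1814, followed by the constitutive HSP70 gene HSPA8 at 1407, the mitochondrial chaperonin HSPD1 at 635.4 and the small heat shock protein HSPB1 at 519.6. HSP90AB1 and HSP90AA1 lay closer to each other (10.91 and 10.83 on the log2 scale per kb) than the s.d. of either over the libraries (0.22 and 0.28), so their order is not beyond that spread. Next came STIP1 at 329.6, which links HSP70 to HSP90, and HSPE1, the partner of HSPD1, at 327.1, also within their spread. Levels in the middle of the order were 253 for the HSP90 activator AHSA1, 178.2 for DNAJB1, 150.9 for the HSP90-bound immunophilin FKBP4 and 103.8 for HSPA1B. The lowest were HSPA4L at 10.06, HSPA1A at 3.21 and DNAJB5 at 3.11. HSF1 stood at 65.1 and HSF2 at 10.9.

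**Figure D1:**
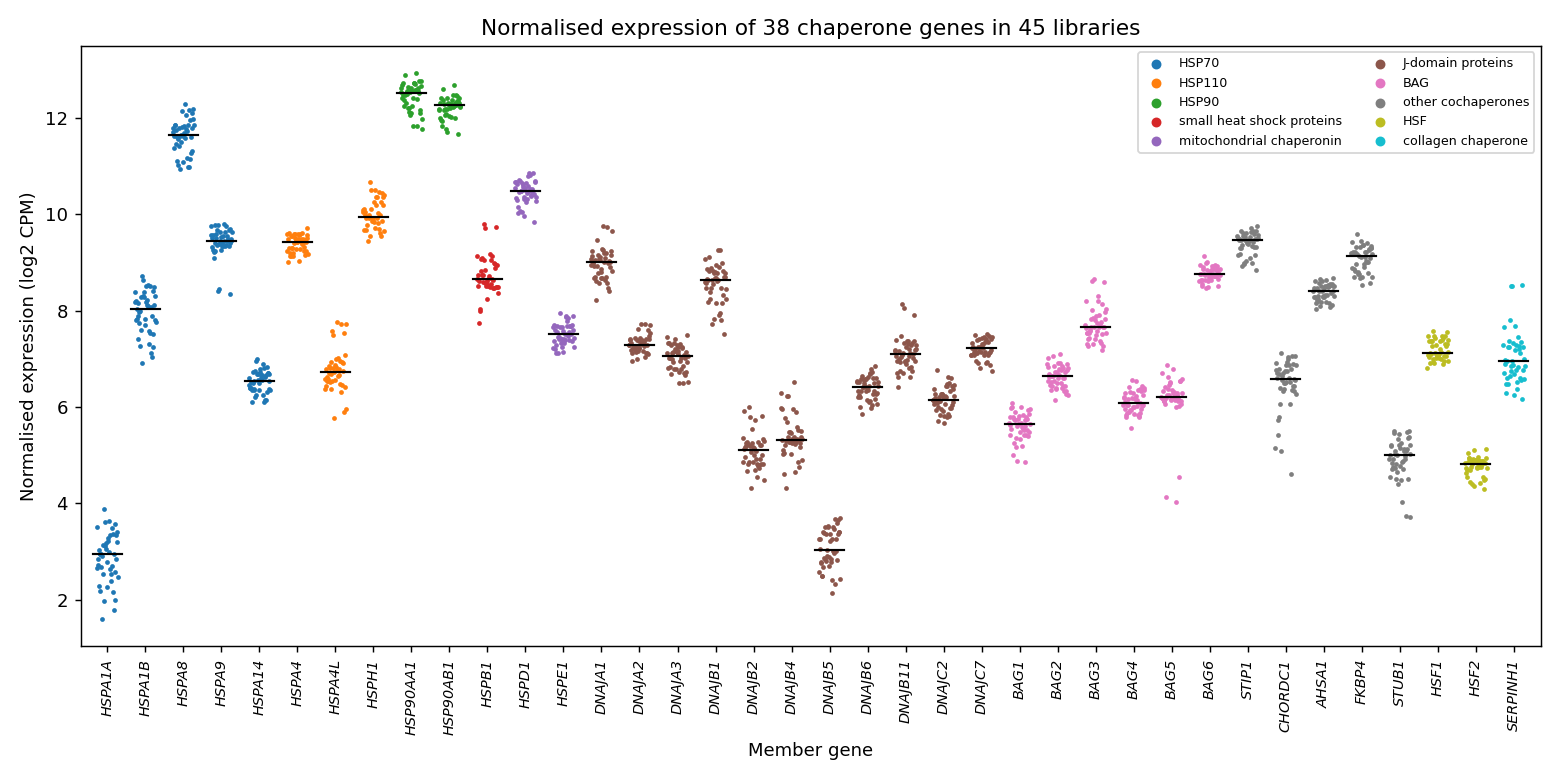
Normalised expression (log2 CPM) of each of the 38 genes, 1 point per library (45 per gene) with a bar at the median, coloured by family. HSP90AA1, HSP90AB1 and HSPA8 lie above the other genes in median, HSPA1A and DNAJB5 lie lowest, and BAG5 has 3 libraries far below its other 42.

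HSPA1A and HSPA1B are near-identical neighbours on chromosome 6 (GRCh37 31783320-31785723 and 31795515-31798031, plus strand), and how reads that fit both were counted is not stated, so the split between them is uncertain. On the same build HSPA8 lies on chromosome 11 at 122928197-122933938 and CHORDC1 at 89933597-89956245 (minus strand), with SERPINH1 at 75273101-75283828 (plus strand). DNAJB1 lies on chromosome 19 at 14625581-14671203 and BAG5 on chromosome 14 at 104022882-104028994, both on the minus strand. All counts are over the exons of these genes. Their counts differed widely, with 31 to 244 reads for HSPA1A and 1554 to 5898 for HSPA1B. Also uncertain are BAG2, whose exons overlap RAB23 over 42.7% of their length, STUB1 (42.5%, JMJD8) and DNAJC2 (20.9%, PMPCB), since the library kit does not mark strand. HSPD1, HSPA8 and HSP90AA1 have 7, 6 and 5 annotated pseudogenes with rows of their own.

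None of the 38 members reached the s.d. of 0.75 over the 45 libraries that the study used to choose variable genes (0 of 38), whereas 14.0% of all 15698 genes did. All genes include those expressed below every member, and that share was not taken for genes of like level. The s.d. of the members (n - 1, log2 scale) ran from 0.15 for BAG6 to 0.56 for BAG5. Its median was 0.28, against 0.33 for the 10330 genes expressed at least as highly as the lowest member and 0.40 for all genes. The members just under the cut-off were BAG5 (0.559), SERPINH1 (0.559), CHORDC1 (0.546) and HSPA1A (0.523). Single members still covered wide ranges. The ratio of highest to lowest library was 7.14-fold for BAG5, 5.68-fold for CHORDC1 and 5.21-fold for SERPINH1, with 1.57-fold for AHSA1 and BAG6 at the other end.

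Among the HSP70 genes, HSPA1B, the major stress-inducible one in these counts, was at 6.92 in KF_17 (1561 reads), 8.03 at the median and 8.72 in KF_16 (5734 reads). HSPA1A ran from 1.61 in KF_12 (31 reads, exact 95% Poisson interval 21.1 to 44) over a median of 2.95 to 3.89 in KF_16 (200 reads). KF_16 was thus the highest library for both, and KF_40 and KF_17 were among the lowest 3 for both. HSPA8, the constitutive HSP70, ran from 10.95 in KF_17 over 11.64 to 12.30 in KF_29, and its 3 highest libraries were KF_29, KF_49 and KF_39. HSPA9, the mitochondrial HSP70, went from 8.34 over 9.45 to 9.79. Its lowest values, 8.34 in KF_44, 8.40 in KF_16 and 8.46 in KF_19, lay clear of the next, 9.10 in KF_7. HSPA14, a ribosome-associated HSP70, had a lowest value of 6.10 and a s.d. of 0.23.

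DNAJB1, the J-domain partner of inducible HSP70, ran from 7.52 in KF_44 over 8.64 to 9.26 in KF_37. In KF_16 it stood at 7.73 and in KF_19 at 7.83, both among the 4 lowest of its values, while HSPA1A and HSPA1B were at or near their highest there. The J-domain protein DNAJB4 went from 4.32 in KF_12 over 5.33 to 6.52 in KF_30, followed by KF_2 (6.29), KF_14 (6.24) and KF_15 (6.23). DNAJB5, from 2.15 (87 reads in KF_29) over 3.04 to 3.69 (141 reads in KF_51), was lowest in KF_29, KF_39 and KF_30. DNAJB11, a J-domain protein of the ER, was highest in KF_16 (8.14), KF_19 (8.06) and KF_44 (7.91), with KF_14 next at 7.48. DNAJA3, of mitochondria, was lowest in KF_39, KF_29 and KF_49, at 6.51 in the last, and DNAJA1 was highest in those 3 libraries, up to 9.75. DNAJC7 was lowest in KF_51, KF_21 and KF_45. The remaining J-domain genes DNAJA2, DNAJB2, DNAJB6 and DNAJC2 had an s.d. of 0.18, 0.37, 0.23 and 0.25.

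Of the HSP110 genes, which exchange nucleotide on HSP70, HSPA4L was at 7.76 in KF_29, 7.73 in KF_39 and 7.72 in KF_49, against a median of 6.74. Its next value was 7.59 in KF_16, and its lowest values were 5.77 in KF_21, 5.90 in KF_45 and 5.96 in KF_51. HSPH1 ran from 9.45 in KF_11 over 9.95 to 10.66 in KF_16. HSPA4 had a s.d. of 0.18 and a highest value of 9.71. The STUB1 ubiquitin ligase, which marks HSP70 clients for degradation, mirrored HSPA4L at its low end, with 3.71 in KF_49 (164 reads), 3.74 in KF_39 and 4.02 in KF_29 against a median of 5.00 and 5.51 in KF_10, its highest library. Over the 45 libraries r between HSPA4L and STUB1 was -0.69 (rho -0.46), the lowest of the 703 pairs of members.

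HSP90AA1, the inducible cytosolic HSP90, ran from 11.77 in KF_49 (43831 reads) over 12.52 to 12.93 in KF_37 (112827 reads). Its lowest libraries were KF_49, KF_39 and KF_29, where HSPA8 was highest. HSP90AB1, the constitutive form, ran from 11.67 in KF_44 over 12.26 to 12.69 in KF_37, and was lowest in KF_44, KF_19 and KF_16. KF_37 and KF_9 were the highest libraries for both HSP90 genes. Among the HSP90 cochaperones, CHORDC1 went from 4.62 in KF_38 (366 reads), 5.08 in KF_13 and 5.16 in KF_1 over a median of 6.57 to 7.12 in KF_14. STIP1, AHSA1 and FKBP4 had an s.d. of 0.23, 0.17 and 0.26.

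HSPB1, a small heat shock protein that holds unfolded proteins, was at 9.79 in KF_16 (12027 reads), 9.73 in KF_44 and 9.71 in KF_19, with 9.18 in KF_30 next, a median of 8.66 and a lowest value of 7.74 in KF_6. KF_7 (7.99) and KF_8 (8.03) were its next lowest. SERPINH1, the collagen chaperone of the ER, was at 8.54 in KF_44, 8.52 in KF_19 and 8.51 in KF_16, with 7.80 in KF_14 next, a median of 6.96 and a lowest value of 6.16 in KF_43. BAG3, which joins HSP70 to small heat shock proteins in autophagy, was at 8.66 in KF_19, 8.62 in KF_16 and 8.60 in KF_44, then 8.31 in KF_30, over a median of 7.66. In the same 3 libraries HSPA9, HSP90AB1, HSF2 and BAG6 had their lowest values. KF_16, KF_19 and KF_44 were each among the 3 highest for 15.9% to 16.9% of all genes and among the 3 lowest for 14.7% to 17.9%, so such places were common there outside the members too. HSF2 ran from 4.29 in KF_44 (186 reads) over 4.82 to 5.13 in KF_49, and HSF1 from 6.81 in KF_1 over 7.12 to 7.57 in KF_12.

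BAG5 stood apart from the other BAG genes. It was at 4.04 in KF_33 (174 reads), 4.13 in KF_12 and 4.55 in KF_42, while the next lowest library was KF_36 at 6.01, the median was 6.20 and the highest was KF_14 at 6.88. Without those libraries the range was 6.01 to 6.88. BAG1, BAG2 and BAG4 had an s.d. of 0.29, 0.23 and 0.22. HSPD1 and HSPE1, which share a promoter region, ran from 9.85 to 10.86 and from 7.13 to 7.96.

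**Figure D2:**
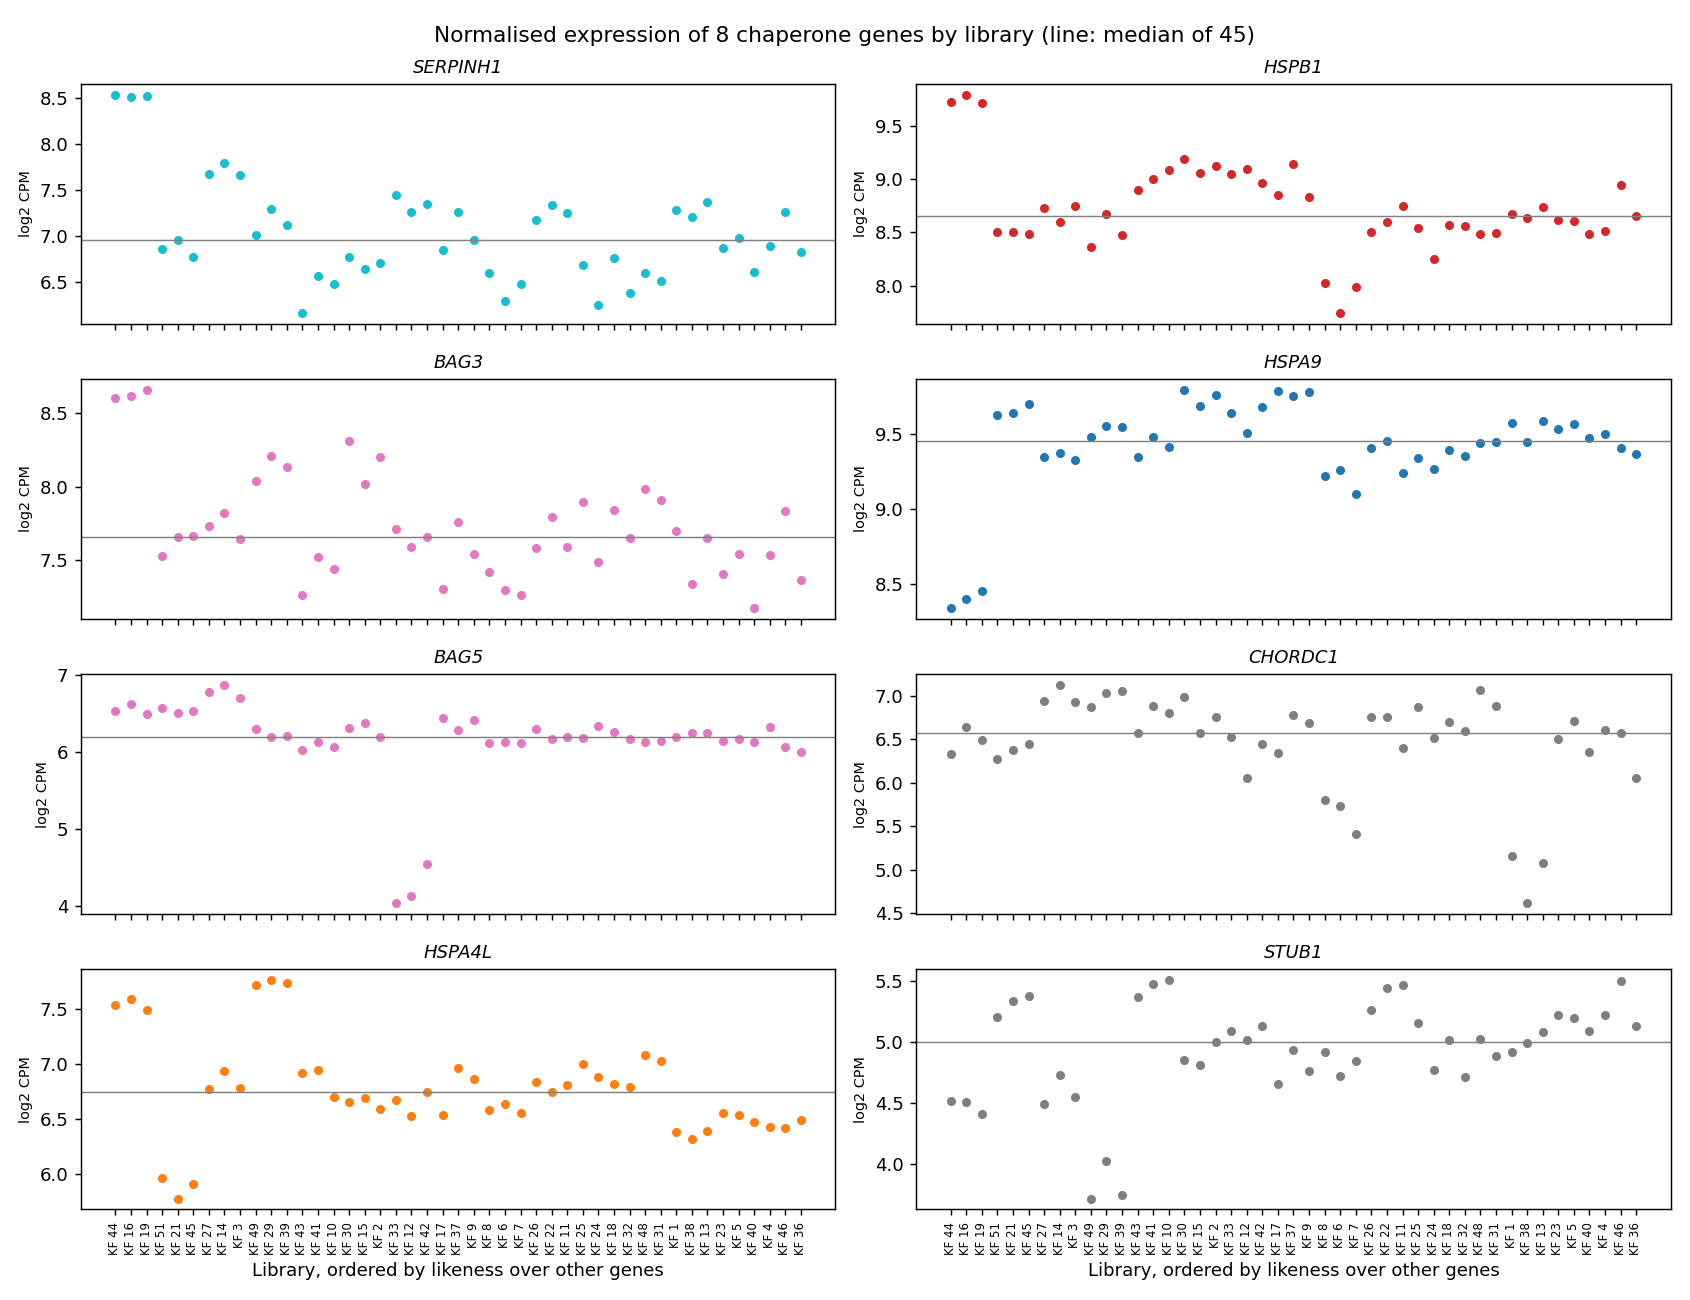
Normalised expression (log2 CPM) of 8 members in each of the 45 libraries, ordered by likeness over genes that are not members, with a grey line at the median. KF_44, KF_16 and KF_19, at the left, are highest for SERPINH1, HSPB1 and BAG3 and lowest for HSPA9, while KF_33, KF_12 and KF_42 are lowest for BAG5.

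**Figure D3:**
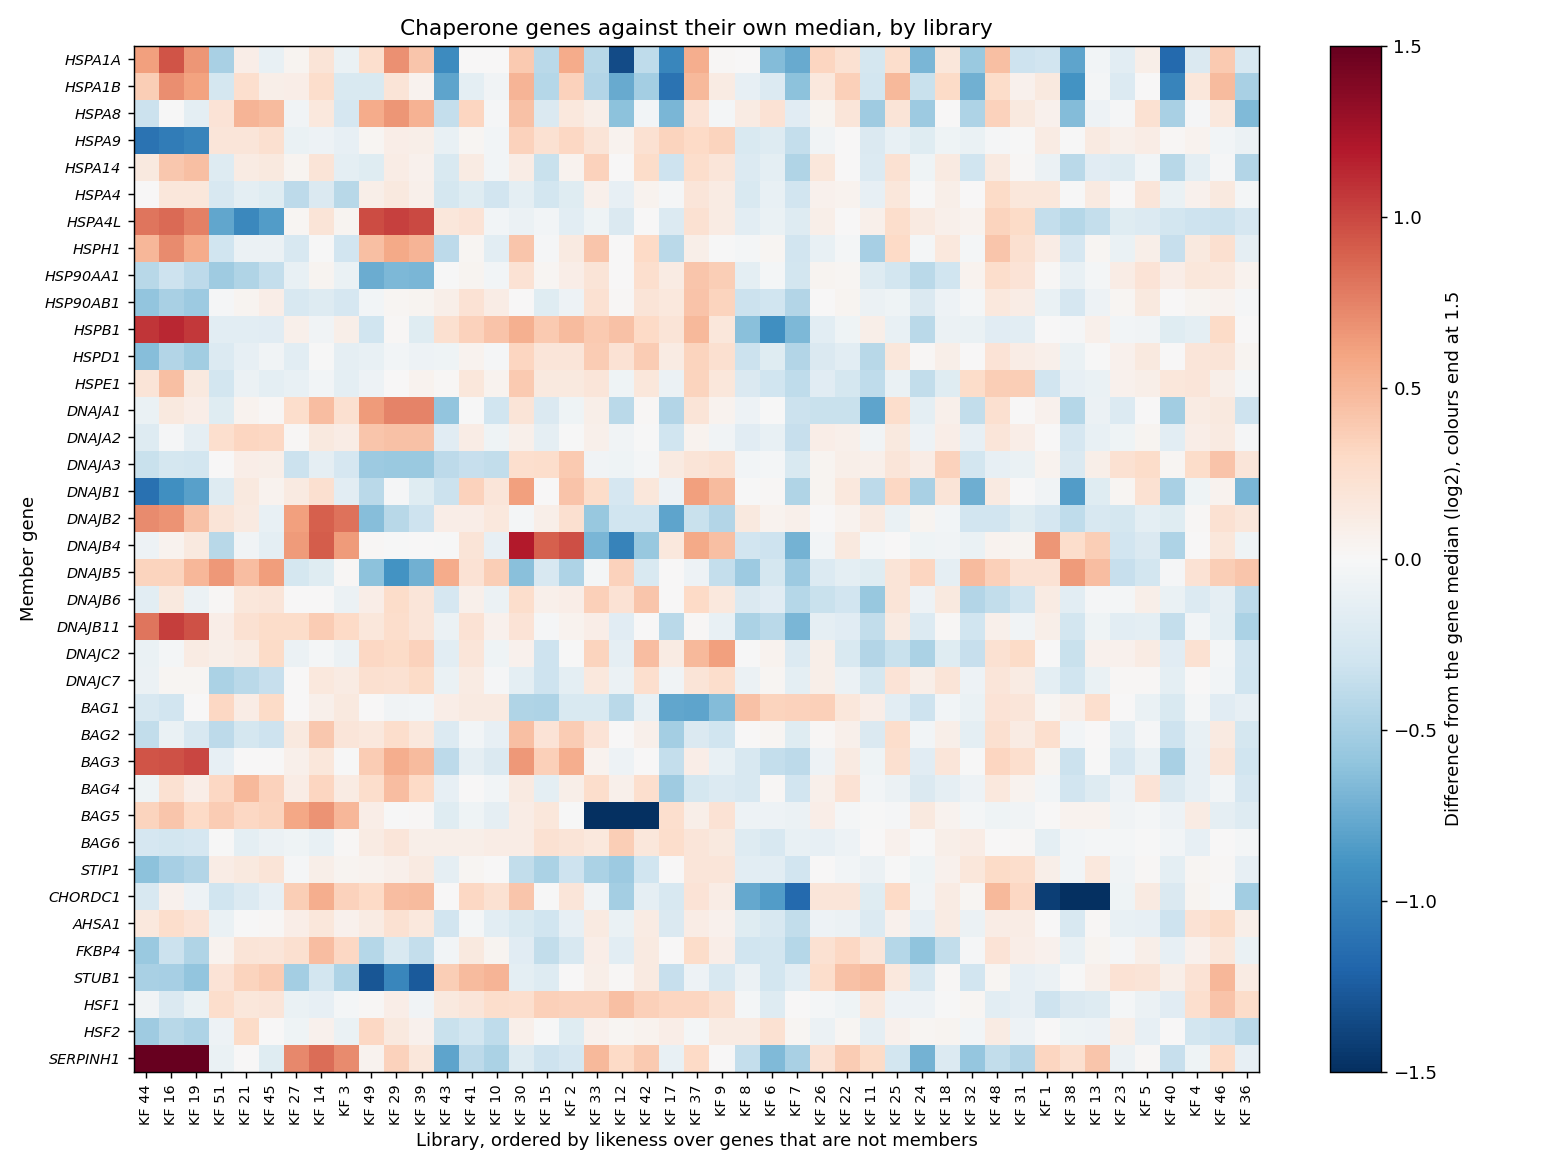
Difference of each member from its own median (log2, colours end at 1.5 either way) in the 45 libraries, ordered by likeness over genes that are not members. Adjacent libraries look alike for most members, for example the HSPA4L and STUB1 values in KF_49, KF_29 and KF_39, but less so for HSPA1A, HSPA1B, HSPA8 and DNAJB1.

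How well a value repeats was described by setting each library against its nearest library, the one most alike over the variable genes other than the members. Over the members, the median absolute difference to the nearest library was 0.13 on the log2 scale, against 0.26 over all 990 pairs of libraries. The ratio of these differences was lowest for DNAJA3 (0.19), HSPA4L (0.20), BAG5 (0.28), DNAJB2 (0.29) and SERPINH1 (0.29), whose values repeated closely. At the other end stood DNAJB1 (1.09), HSPA8 (0.98), HSPA1A (0.97), HSPA14 (0.90) and HSPA1B (0.83), which differed between nearest libraries about as much as between any. The median ratio was 0.50 for the members and 0.37 for genes of like level. Of 1682 genes with a mean log2 value of at least 7, 0.595% had a ratio as high as HSPA8 and 0.297% one as high as DNAJB1. HSPA1A is read least of the 4, and HSPA8 had 20962 reads or more in every library.

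**Figure D4:**
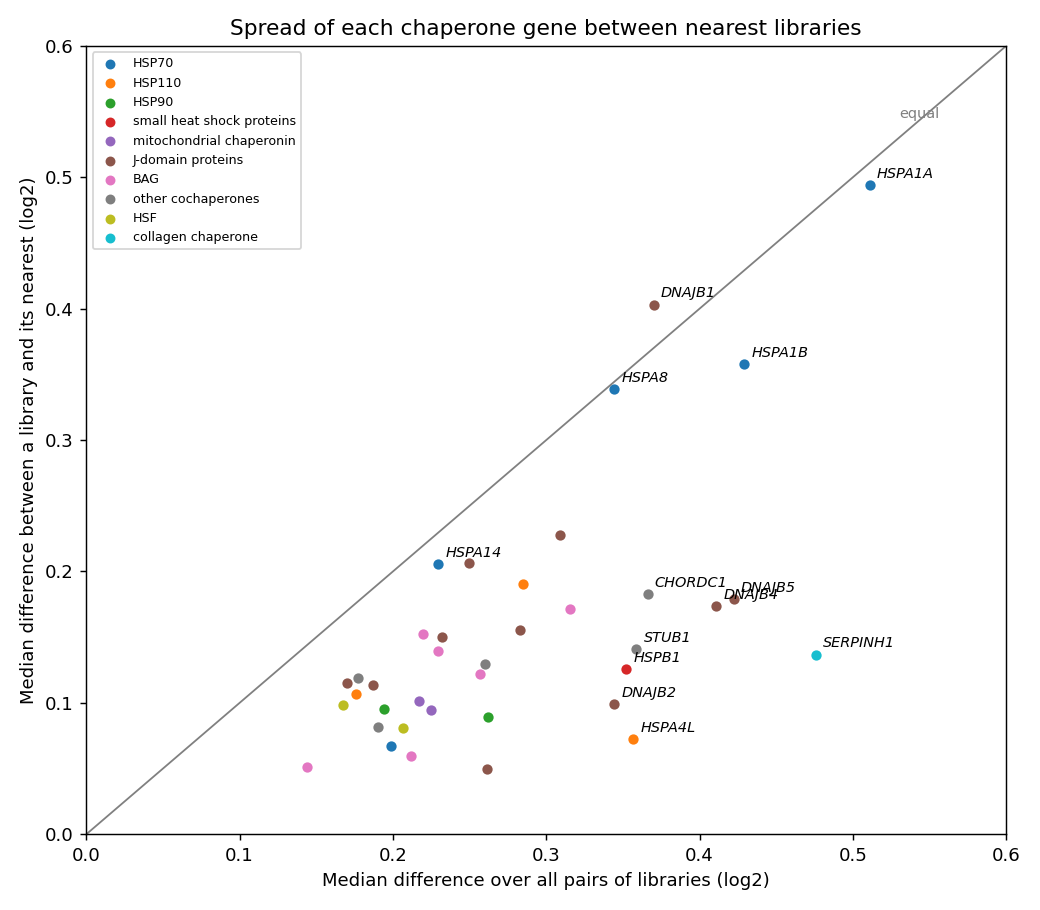
Median absolute log2 difference between a library and its nearest one (vertical) against that over all pairs of libraries (horizontal), 1 point per member, coloured by family, with a line where both are equal. DNAJB1, HSPA8 and HSPA1A lie at the line (ratios of 1.09, 0.98 and 0.97), and SERPINH1 and HSPA4L lie far under it (0.29 and 0.20).

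HSPA1A, HSPA1B, HSPA8 and DNAJB1, picked out here after their values were seen, also differed in the same direction. A difference of at least 0.5 (1.41-fold) from the nearest library was found in 21 of 45 libraries for HSPA1A, 16 for HSPA1B, 15 for HSPA8 and 14 for DNAJB1, but in at most 3 for any other member. For genes of like level the median was 0% of libraries. Only MT-ND6, MT-ND4, HSPA1B and HSPA8 among the 1682 highly expressed genes did so in 15 libraries or more. In 15 pairs, each library was the nearest of the other, so a difference within such a pair enters the counts above for both of its libraries. Taken in the direction of HSPA8, the other 3 genes had the same sign as HSPA8 in 13 of the 15 pairs. The direction was not particular to these genes. The median of the 34 other members was also above 0 in every pair but KF_21 and KF_45 (-0.02), though at 0.20 at most. In KF_5, HSPA1B was at 8.03, HSPA8 at 11.86 and DNAJB1 at 8.87, whereas in KF_40 they were at 7.04, 11.15 and 8.16. The differences were 0.98, 0.72 and 0.71, beside 0.17 for the median of the 34 other members and 0.02 for genes of like level. KF_46 and KF_36 differed by 0.96, 0.81 and 0.74, and KF_13 and KF_38 by 0.87, 0.57 and 0.67. In KF_16 and KF_19 the same genes differed by 0.09, 0.14 and -0.10. These are comparisons of single libraries and have no replicate check.

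**Figure D5:**
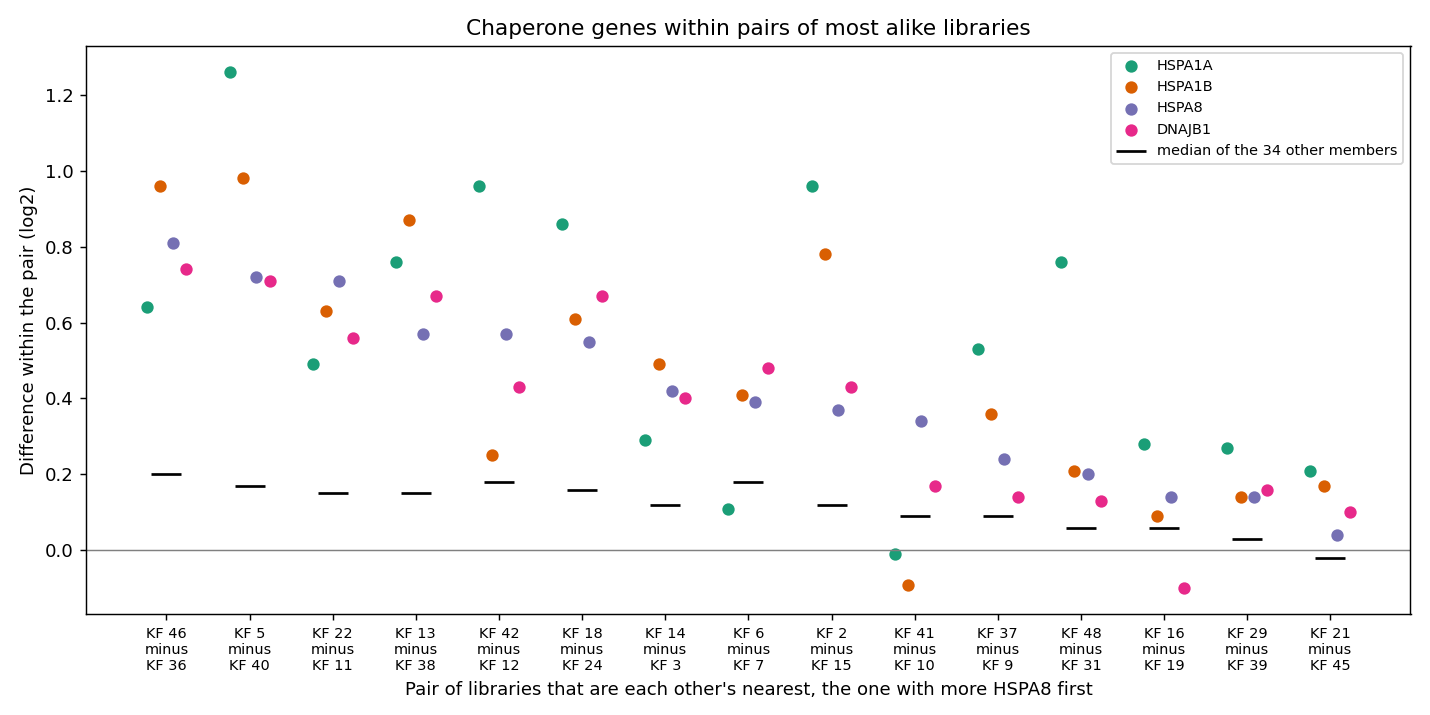
Difference within each of the 15 pairs of mutually nearest libraries (log2), the library with more HSPA8 first, for HSPA1A, HSPA1B, HSPA8 and DNAJB1, with a black bar at the median of the 34 other members. HSPA8 is above 0 by the order of the pair. In 13 of 15 pairs all 4 genes are above 0, and in the 6 pairs at the left HSPA8 is above 0.5 while the bars stay at 0.20 or under.

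Measures of library quality stood beside this as follows. The library with more HSPA8 had more reads in 12 of the 15 pairs, and over the 45 libraries r between HSPA8 and the log2 library total was 0.33 (rho 0.36), against 0.03 for HSPA1B and 0.05 for DNAJB1. The share of reads on 25 mitochondrial genes ran from 3.25% to 8.42%, was higher in the library with more HSPA8 in 4 of the 15 pairs, and had r of -0.15 with HSPA8, -0.51 with DNAJB1 and 0.14 with HSPA1B. MT-ND6 went in the direction of HSPA8 in 4 pairs and MT-ND4 in 5. The part of depth or of RNA state in these differences was not tested.

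Likeness to HSPA1A over the 45 libraries is given as a description, since libraries of 1 condition are not independent. The 5 genes most alike among 13582 others with a symbol were HSPA1B (r 0.89, rho 0.88), BAG3 (0.76, 0.75), the RNA polymerase subunit POLR2F (0.75, 0.74), the dynein light chain DYNLL1 (0.73, 0.72) and the mitochondrial ribosomal protein MRPL35 (0.72, 0.72). Without KF_12 and KF_40, the libraries farthest from the HSPA1A median, BAG3 had r of 0.78 and HSPA1B 0.88. Of the 37 other members, 8 had r of at least 0.5 (21.6%), namely HSPA1B, BAG3, HSPH1, HSPA14, DNAJB11, DNAJA1, AHSA1 and HSPA8, against 1.94% of all genes. HSP90AA1 (-0.20), HSP90AB1 (-0.11), HSF1 (-0.13), HSF2 (-0.20) and HSPA9 (-0.28) had low values of either sign. Among the members, HSPA9, HSP90AB1 and HSPD1 were alike at r of 0.77 to 0.79, HSPA8 and DNAJA2 at 0.77, and HSPH1 and BAG3 at 0.81. Part of the likeness of HSPA1A to HSPA1B can come from shared reads, and that part was not tested.

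Genes of neighbouring chaperone systems were read in the same way. No gene of the 8 of the cytosolic chaperonin TRiC, the 12 ER chaperones or the 6 mitochondrial chaperones and proteases reached a s.d. of 0.75, and 1 of the 14 other cytosolic partners did. That gene was HSPB8, a small heat shock protein that works with BAG3, at 2.62 to 6.40 (s.d. 0.95), with its highest values in KF_15 and KF_30. Median s.d. was 0.18 for TRiC, 0.35 for the ER list, 0.27 for the mitochondrial list and 0.25 for the other partners, beside 0.28 for the members. HTRA2, a mitochondrial protease, and DNAJB9, of the ER, had a s.d. of 0.56 each, as high as the most variable members. With HSPA1A, r was at least 0.5 for 0 of the 26 genes of the first 3 lists and for CDC37, the kinase cochaperone of HSP90, at 0.60. None of these lists held a gene that differed by 0.5 from the nearest library in more than 3 libraries.

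By the listed names, each siRNA was set against mock in a single limma fit of all libraries. A call needed an adjusted p under 0.05 and a log2 fold change of 1 or more in size. No member was called in the 14 comparisons (0 of 532), and 0.00% of all genes and comparisons did. At an unadjusted p under 0.05 there were 40 of 532 for the members, beside 10392 of 219730 (4.73%) over all genes. The 40 are not independent, since genes such as SERPINH1 and HSPH1 recur and all comparisons share the same listed mock libraries. The member with the lowest p of the 532 was HSPH1. It was at 9.45 in KF_11, 9.71 in KF_27 and 9.86 in KF_45, listed as siPSMD13. In the libraries listed as mock it was at 10.06 in KF_1, 10.66 in KF_16 and 10.37 in KF_33. The log2 fold change was -0.69 ± 0.22 (SE, limma adjusted p = 0.48). Since the siRNA targets go against the names, these comparisons do not describe the siRNAs.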

How the data were processed

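RNA of HCT116-VR cells was poly-A selected and read single-end in 45 libraries. The authors used TopHat 1.4.1 and GRCh37 for alignment and HTSeq-count with Ensembl release 67 for counting, and deposited log2 CPM values normalised with EdgeR and Limma-Voom for 15698 genes. The strand setting and the gene filter are not given in the sources used here. Whole reads were recovered by setting each library's lowest value to 0 reads (0.5 added per count), and 100% of values lay within 0.001 of a whole number. Poisson intervals cover counting error only.

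Members were found by symbol (GENCODE release 44, 15366 of 15698 identifiers matched). Members and lists were chosen with earlier results of these data known. Conditions are those of the study's sample list, kept as names only. Reading conditions from column order, which had been proposed together with the gene list, was not done, and no library was given a condition from its values. The nearest library was found by 1 minus the uncentred Pearson correlation over genes with s.d. of at least 0.75, members left out. The fit by listed names used limma 3.58.1 (lmFit, then eBayes with trend, R 4.3.3) on 15695 genes that reached -1 on the log2 scale in 3 or more libraries, with Benjamini-Hochberg adjustment. Python 3.11.15, pandas 2.3.3, numpy 2.4.6 and scipy 1.17.1 gave the other values, and scripts were tested on simulated data.

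Genes described in full were the 10 members with the largest s.d. at a mean log2 value of at least 0, with HSPA1A, HSPA1B, HSPA8, HSP90AA1, HSP90AB1, HSF1 and HSF2, and outside the members the siRNA targets, the 5 genes most alike to HSPA1A and listed partners with s.d. of at least 0.75. DNAJB1, BAG3, DNAJB11, HSPA9, MT-ND4, MT-ND6 and CDC37 were singled out after their values were seen. TruSeq v2, the library kit, does not mark strand. Lengths are those of the Ensembl canonical transcript, and upstream windows are 250 bases, of which 120 are shown for some genes.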

Additional observations from a re-analysis of the deposited data

How the results depend on the processing

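The count of members called by listed names was 0 under the 6-sample fit, no filter, median-centred or quantile-normalised libraries, voom weights from recovered reads, eBayes without trend, adjusted p alone and each of the 45 fits that left out 1 library (0 to 0). Over all genes, 0 of 219730 tests were called in the main fit. Since the siRNA targets go against the names, these counts do not tell whether members respond to the siRNAs. Whether the numbers of the list pair the libraries cannot be told from the listed groups, which go against the siRNA targets. Same-numbered libraries deviated from their listed group means with a median correlation of 0.00 over 315 pairs (-0.57 to 0.83, 66 above 0.1), and the fit with the replicate block gave 0 calls. The count of members with s.d. of at least 0.75 was 0 under every alternative run, which were s.d. with n, both scalings, log2(CPM + 1), a cut-off of 1.00, genes with a mean of at least 0, and leaving out each library. Without KF_33, the s.d. of BAG5 was lowest among these, at 0.462 against 0.559. The s.d. of HSPA1A moved from 0.52 to 0.45 and that of DNAJB5 from 0.41 to 0.36 with log2(CPM + 1). The median difference to the nearest library was 0.12 to 0.13 under each alternative, including one without KF_7 and KF_17 chosen after seeing the data. Members with r of at least 0.5 to HSPA1A numbered 8 to 12. Depth limits HSPA1A most, with as few as 31 reads.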

Other observations

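Several members shared their 3 highest or 3 lowest libraries, in some cases clear of the next library (BAG5, SERPINH1, HSPA9) and in others not (HSPA8, at 12.16 against 12.15 in KF_21, and HSF2, at 4.41 against 4.42 in KF_36). The siRNA targets read lowest in the same libraries are given here as measured, without naming a condition. KF_16, KF_44 and KF_19 (listed as mock, siPOLR2D and siCDK10) were the 3 highest for SERPINH1, HSPB1, BAG3 and DNAJB11 and the 3 lowest for HSPA9, HSP90AB1 and HSF2, and POLR2D, an RNA polymerase II subunit, had 102, 87 and 147 reads there against 759 in the next library by normalised expression. Among all genes these libraries were in the top 3 for 15.9% to 16.9% and in the bottom 3 for 14.7% to 17.9%, and among the members for 13.2% to 26.3% and 15.8% to 23.7%. KF_29, KF_39 and KF_49 (listed as siRGS18, siDPPA5 and siTGM5) were the highest for HSPA4L, HSPA8 and DNAJA1 and the lowest for STUB1, HSP90AA1 and DNAJA3, and CCNK had 43, 44 and 42 reads there against 889 in the next. All-gene shares there were 9.51% to 11.8% (top 3) and 9.9% to 12% (bottom 3), and those of the members 13.2% to 21.1% and 10.5%. KF_21, KF_51 and KF_45 (listed as siDPPA5, siTOX4 and siPSMD13) were the lowest for HSPA4L and DNAJC7, and SAP130 had 22, 25 and 31 reads there against 513 in the next. These libraries were in the bottom 3 for 10.7% to 12.3% of all genes but for only 5.26% to 7.89% of the members. KF_6, KF_7 and KF_8 (listed as siEIF3L, siGLI1 and siJAK2) were the lowest for HSPB1, and EIF3L, a translation initiation subunit, had 102, 106 and 123 reads there against 3891 in the next. They were in the bottom 3 for 4.24%, 6.01% and 3.86% of all genes and for 5.26%, 31.6% and 5.26% of the members.

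KF_30, KF_15 and KF_2, where PSMD13 was lowest, had the highest values of HSPB8 (6.40, 6.40 and 6.26) and values of 6.52, 6.23 and 6.29 for DNAJB4 and 8.31, 8.02 and 8.20 for BAG3, but HSPA1B was at 8.53, 7.60 and 8.38 there and HSPA8 at 12.07, 11.42 and 11.79, on both sides of the medians of 8.03 and 11.64. BAG5 was lowest in KF_33, KF_12 and KF_42, listed as mock, siRGS18 and siJAK2, and CHORDC1 in KF_38, KF_13 and KF_1, listed as siCDK10, siSAP130 and mock. In neither set were all 3 libraries the lowest 3 for any of the 11 siRNA targets found. In the CHORDC1 set, BEGAIN had 5 reads in KF_38, 4 in KF_1 and 10 in KF_13, places 2, 3 and 5 from the lowest, against a median of 22, and CCNK had 889, 684 and 1113 reads, places 4, 6 and 5 by normalised expression.

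Single libraries also stood out. KF_7 was among the lowest 3 for 12 of the 38 members (31.6%), while it was so for 6.01% of all genes, and KF_17 for 9 (23.7% against 4.66%). Their nearest libraries, KF_6 and KF_9, were among the lowest 3 for 2 and 1 of the members.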
